A study of Drosophila melanogaster with 2 samples.

Results

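The genes described here encode the subunits of RNA polymerases I, II and III and the general transcription factors that place polymerase II at promoters. They were taken by symbol from the protein-coding genes of the fly annotation: every gene whose symbol starts with Polr1, Polr2, Polr3, Taf followed by a digit, or TfII, together with Tbp. This gave 55 genes of 13945 coding genes, of which 7 carry a Polr1 symbol, 13 Polr2, 10 Polr3, 16 are TFIID subunits or TBP, and 9 carry a TfII symbol. The study was a ChIP-seq experiment on whole adult Drosophila melanogaster females, of unknown age, from a transgenic line that stably expresses the protein CG1620 with eGFP fused to its C-terminal end. Chromatin was sonicated to a size range of 200 to 800 bp and precipitated with an antibody against GFP. There was 1 group with 2 biological replicates, numbered 2 and 3, which are separate biosamples of the same line. The control named in the labels was not analysed here, and the samples are of a single genotype, sex and stage, so no test between conditions was made. Chromatin of all tissues of the fly was mixed, and a peak in a few cells cannot be told apart from a weak peak in many.

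RNA polymerase I transcribes the large ribosomal RNA precursor, RNA polymerase II transcribes messenger RNAs, and RNA polymerase III transcribes transfer RNAs and other small RNAs. Each enzyme is built around a pair of large catalytic subunits, several small subunits are common to more than one of them, and stalk and initiation subunits are particular to each. At polymerase II promoters TFIID, made of the TATA-binding protein TBP and its associated factors (TAFs), recognises core promoter DNA, TFIIA and TFIIB stabilise it, and TFIIF, TFIIE and TFIIH bring in the polymerase and open the DNA. Some TAFs have copies expressed in the testis, where they act in the spermatocyte transcription programme.

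A promoter peak had its summit at most 500 bp from a transcription start site (TSS) annotated for the gene. The authors deposited 30000 candidate peaks from both replicates pooled, and an optimal set of 3894 peaks chosen by irreproducible discovery rate (IDR), a measure of how well peak ranks repeat between replicates. The value of a peak is the authors' signal value, taken here as a score of enrichment over the control, since the column stands in the place of that score and no source used here describes it. The 3894 optimal peaks were the 3894 strongest pooled candidates, with a weakest signal of 70.0, and the pooled list ended at a signal of 18.9. A pooled candidate below the optimal set is called a weaker candidate here.

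Of the 55 genes, 25 (45.5%; exact 95% binomial interval 32.0 to 59.4%) had an optimal IDR peak at a promoter, against 26.3% of all coding genes (3662 of 13945). With each peak given to its nearest TSS alone, 14 members (25.5%) kept one, against 19.2% of all coding genes, with 0 of 7 Polr1 and 1 of 9 TfII genes among them. Another 22 (40.0%) had only a weaker candidate, against 31.2% of all coding genes, and 8 (14.5%) had no candidate, against 42.5%. Peaks lay at 2 of 7 Polr1 genes, 7 of 13 Polr2 genes, 4 of 10 Polr3 genes, 8 of 16 genes of TFIID subunits and TBP, and 4 of 9 TfII genes. The intervals of these shares overlapped widely, running from 3.67 to 71.0% for Polr1 and from 25.1 to 80.8% for Polr2, so no order among the classes could be read at these numbers. The intervals cover counting error only. No member had more than 1 optimal peak, and no optimal peak served 2 members.

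**Figure D1:**
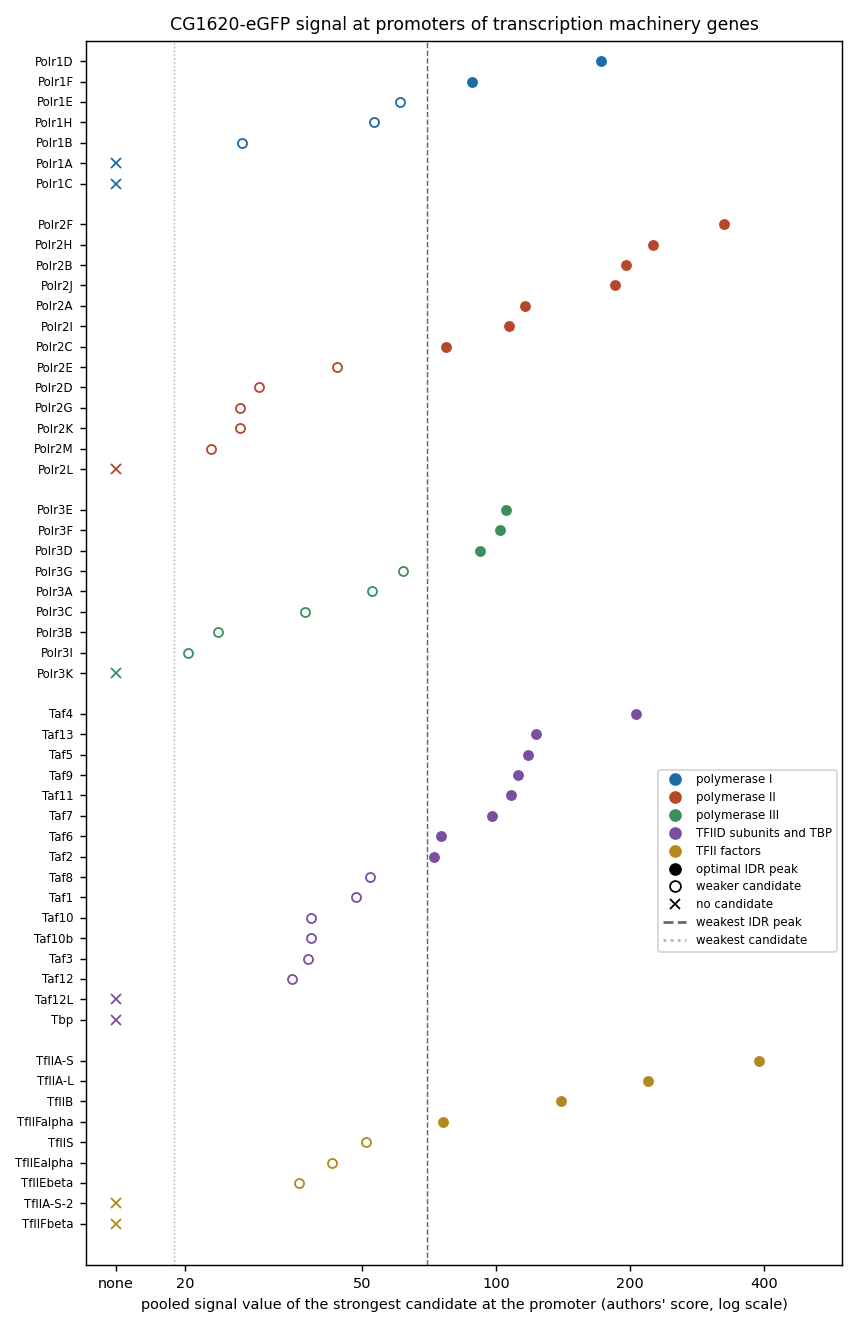
Pooled signal value of the strongest promoter candidate of the genes (horizontal axis, log scale), grouped by class, with filled circles for optimal IDR peaks, open circles for weaker candidates and crosses for genes with none. The dashed line is the weakest IDR peak (70.0) and the dotted line the weakest pooled candidate (18.9), and every class except polymerase I and polymerase III holds at least 1 peak above 200.

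The pooled signals of the 25 peaks ran from 72.6 to 390 with a median of 116 and quartiles of 98.1 and 185, against a median of 133 and quartiles of 94.8 and 210 over all coding genes with a promoter peak, whose strongest reached 2347. Among the 1947 strongest IDR peaks lay those of 13 of the 25 members (52.0%), against 59.7% of all coding genes with one. Taf2, at 72.6, and Taf6, at 75.3, were the members just inside the IDR set, and Polr3G, at 61.9, and Polr1E, at 60.7, were the members just outside it.

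The DNA at the strongest member peaks, those of TfIIA-S and Polr2F, is printed here with that of Taf9 and of the weaker candidate of Polr3A. The set holds examples of the motif matches and a window without one. Each is the stretch within 50 bp of the summit, cut where an annotated exon begins, on the strand of the gene and 5′ to 3′, in dm6 coordinates with the letters of the RefSeq release 6 assembly. Capitals mark matches to the searched motifs. TfIIA-S is chr3R:23891070-23891170 (minus strand), Polr2F is chr3R:5371745-5371794 (plus), Taf9 is chrX:17842057-17842157 (plus) and Polr3A is chrX:15762865-15762955 (plus).
TfIIA-S: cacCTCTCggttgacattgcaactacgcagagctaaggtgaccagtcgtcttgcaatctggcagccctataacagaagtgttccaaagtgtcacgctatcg
Polr2F: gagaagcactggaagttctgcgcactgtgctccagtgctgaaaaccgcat
Taf9: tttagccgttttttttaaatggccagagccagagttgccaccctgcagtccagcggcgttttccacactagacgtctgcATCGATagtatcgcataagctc
Polr3A: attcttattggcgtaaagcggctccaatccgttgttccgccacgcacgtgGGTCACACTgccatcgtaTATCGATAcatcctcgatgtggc

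Motifs known from fly promoters were searched on both strands within 50 bp of each summit. The sequence AACCCCC, named in earlier results of these data, was searched beside them. The DNA replication-related element TATCGATA was found at 0 of 25 member peaks, against 5.93% of 2883 coding promoter IDR peaks, and its core ATCGAT, which lies within the longer motif, at Taf9 alone, against 14.8%. GAGAG, the GAGA factor motif, was found at Polr2A and TfIIA-S, against 10.6%. TATAAA, the TATA box, was found at Polr1F, Polr2I, Polr2J, Polr3E and Taf5, against 15.2%, and the E-box CAGCTG, the sequence AACCCCC and the motif 1 core GGTCACACT at none, against 7.91%, 0.694% and 2.95%. Among the 21 distinct weaker candidates of members, TATCGATA was found at Polr3A and Polr3B, against 2.65% of 6751 weaker candidates, and GGTCACACT at Polr3A and Taf1, against 1.87%. ATCGAT was found at Polr1E, Polr3A and Polr3B, against 8.52%, and CAGCTG at Polr1B, Polr2M and TfIIEbeta, against 6.49%. GAGAG was found at Polr2D, against 14.4%, TATAAA at Polr3C, against 11.6%, and AACCCCC at none, against 0.593%. A match describes the letters in the window and is not evidence of a bound factor.

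The strongest member peak belonged to a gene of TFIIA, a factor that stabilises the contact of TBP with DNA. The peak of TfIIA-S, which encodes the small subunit, had a pooled signal of 390 and rank 166 of 30000, with signals of 261 in replicate 2 (rank 209) and 125 in replicate 3 (rank 119). The peak of TfIIA-L, which encodes the precursor of the large subunits, had a pooled signal of 220 (rank 656), with 165 (rank 607) in replicate 2 and 53.1 (rank 880) in replicate 3. Signals are not scaled between the lists, so the replicates are set side by side by rank, where both placed each gene of the pair among their 880 strongest candidates. TfIIA-S-2, a second gene for the small subunit on the X chromosome, had no candidate within 500 bp. Its nearest candidate lay 792 bp away with a signal of 19.6.

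TfIIB, the factor that links TBP to the polymerase, had a peak of 140 (rank 1426), with 85.6 (rank 1974) in replicate 2 and 53.0 (rank 883) in replicate 3. The subunits of TFIIF, which escorts polymerase II to the promoter, were unlike each other. TfIIFalpha had a peak of 75.8 (rank 3496), with 63.9 (rank 3046) and 14.4 (rank 5646) in replicates 2 and 3, and TfIIFbeta had no candidate within 500 bp, the nearest lying 687 bp away with a signal of 23.3. Both subunits of TFIIE, which recruits TFIIH, had weaker candidates only. TfIIEalpha had 42.8 (rank 7543), with 37.0 (rank 6619) and 8.88 (rank 16688) in replicates 2 and 3, and TfIIEbeta had 36.1. TfIIS, which helps a stalled polymerase II to resume, had a weaker candidate of 51.1 (rank 5883) that was listed in replicate 3 alone, at 35.2 (rank 1634).

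TFIID genes with a peak were Taf2, Taf4, Taf5, Taf6, Taf7, Taf9, Taf11 and Taf13. Taf4, a scaffold subunit of TFIID, had the strongest, at 206 (rank 754), with 156 (rank 686) in replicate 2 and 52.5 (rank 895) in replicate 3. Taf13 had 123 (rank 1749), with 91.8 (rank 1737) and 25.7 (rank 2459), and its histone-fold partner Taf11 had 108 (rank 2158), with 75.5 (rank 2378) and 33.6 (rank 1734). Both lay near the median of the member peaks. The histone-fold pair Taf6 and Taf9 both had peaks too. Taf9 had 112 (rank 2044), with 74.4 (rank 2432) and 38.4 (rank 1463), and Taf6 had 75.3 (rank 3519), with 53.7 (rank 3896) and 17.1 (rank 4263).

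The WD40-repeat subunit Taf5 had 118 (rank 1881), with 89.5 (rank 1818) in replicate 2 and 28.7 (rank 2115) in replicate 3. Taf7, a partner of Taf1, had 98.1 (rank 2497), with 70.3 (rank 2655) and 33.6 (rank 1735). Taf2, which contacts the initiator element, had 72.6 (rank 3683), with 54.1 (rank 3847) and 17.3 (rank 4177). Weaker candidates alone were found at Taf1, the largest subunit, with 48.4 (rank 6359; 41.1 at rank 5675 and 13.3 at rank 6599 in replicates 2 and 3), and at Taf8, with 52.0 (rank 5752; 45.5 at rank 4933 and 10.7 at rank 10689). Taf12, the histone-fold partner of Taf4, had a candidate of 34.8. Taf10 and Taf10b, paralogous genes that lie head to head with start sites 45 bp apart, shared a single candidate of 38.4 (rank 8898), listed at 25.5 (rank 11863) in replicate 2 and not in replicate 3.

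Tbp itself had no pooled candidate within 500 bp. Its nearest lay 561 bp away with a signal of 24.8, and replicate 3 alone listed a candidate at the promoter, at 7.79 (rank 22162), near the weakest of that list, 6.69. Taf12L, the copy of Taf12 expressed in the testis, had no candidate either, its nearest lying 18514 bp away and its nearest optimal peak 108710 bp away. The other testis copies of TAF genes are not named by the symbol rule. Of 4 of them, can and nht (copies of Taf5 and Taf4) had no candidate, and mia and sa (copies of Taf6 and Taf8) had weaker candidates of 49.5 and 22.0, each in 1 replicate. Over all coding genes, 42.5% had no candidate, 31.2% only a weaker one and 26.3% an optimal peak. These 4 genes are too few to be set apart from those shares. Their counterparts Taf4, Taf5 and Taf6 had peaks, and Taf8 and Taf12 had weaker candidates. All flies were female, so the testis was not sampled, and the part of this in the values was not tested.

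Polymerase II genes included both of its catalytic subunits. Polr2B, the second largest subunit, had a peak of 196 (rank 823), with 113 (rank 1208) in replicate 2 and 82.0 (rank 356) in replicate 3. Polr2A, the largest subunit, whose tail of heptad repeats is phosphorylated during transcription, had 116 (rank 1932), with 80.1 (rank 2176) and 38.4 (rank 1462). The catalytic subunits of the other polymerases had no optimal peak. With 26.3% of all coding genes having one, these genes are too few to be set apart from that share. Polr3A, the largest subunit of polymerase III, had a weaker candidate of 52.6 (rank 5691), listed at 48.1 (rank 4526) in replicate 2 and at 7.60 (rank 23383) in replicate 3. Polr3B and Polr1B had candidates of 23.7 and 26.9, and Polr1A had none within 500 bp, its nearest lying 3149 bp away.

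Of the subunits shared between polymerases, Polr2F, Polr2H and Polr1D had peaks, which were 3 of the 8 strongest of the set. Polr2F, common to all the polymerases, had 325 (rank 261), with 245 (rank 238) in replicate 2 and 79.9 (rank 377) in replicate 3. Polr2H, also common to all, had 225 (rank 621), with 138 (rank 859) and 88.0 (rank 292). Polr1D, common to polymerases I and III, had 172 (rank 1006), with 113 (rank 1218) and 62.9 (rank 640). Its partner in the assembly of both enzymes, Polr1C, had no candidate, the nearest lying 1370 bp away. Polr2E had a weaker candidate of 43.9 (rank 7287), with 25.6 (rank 11771) and 12.7 (rank 7248) in replicates 2 and 3, and Polr2K had 26.6. Polr2L had no pooled candidate, and replicate 2 alone listed one at 15.5 (rank 26341).

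Polr2C and Polr2J form the assembly core of polymerase II, the counterpart of Polr1C and Polr1D. Polr2J had 185 (rank 887), with 109 (rank 1288) in replicate 2 and 75.3 (rank 424) in replicate 3, and Polr2C had 77.2 (rank 3418), with 57.8 (rank 3511) and 16.1 (rank 4664). Polr2I, which acts in the fidelity of elongation, had 107 (rank 2197), with 62.1 (rank 3176) and 39.8 (rank 1385). The stalk subunits Polr2D and Polr2G had only weaker candidates, of 29.4 and 26.6, and so had Polr2M, known in mammals as a subunit of a subset of polymerase II, at 22.9. The candidate of Polr2G was centred 448 bp downstream of its TSS, the farthest of any member.

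Among subunits particular to polymerase III, Polr3D and Polr3E, a dimer related to TFIIF, both had peaks. The summit at Polr3E was nearer the TSS of CG10584 (131 bp) than that of Polr3E (334 bp). Polr3E had 105 (rank 2253), with 84.2 (rank 2023) in replicate 2 and 20.9 (rank 3210) in replicate 3, and Polr3D had 91.9 (rank 2734), with 70.8 (rank 2629) and 20.9 (rank 3225). The initiation trimer of this polymerase was mixed. Polr3F had a peak of 102 (rank 2349), listed at 86.1 (rank 1957) in replicate 2 and at 12.7 (rank 7340) in replicate 3, and Polr3G had a weaker candidate of 61.9 (rank 4556; 47.7 at rank 4582 and 14.1 at rank 5883). Polr3C had 37.3, the stalk subunit Polr3I had 20.3, and Polr3K, which acts in termination, had no candidate within 500 bp.

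Among subunits particular to polymerase I, only the stalk subunit Polr1F had a peak, of 88.2 (rank 2885), with 63.3 (rank 3088) in replicate 2 and 21.1 (rank 3177) in replicate 3. Polr1E, which acts in initiation and elongation by polymerase I, had a weaker candidate of 60.7 (rank 4678), listed at 38.2 (rank 6319) and at 20.9 (rank 3215). Polr1H, which acts in cleavage of the nascent RNA, had 53.3 (rank 5590), listed at 48.5 (rank 4480) in replicate 2 and not in replicate 3. By role, 2 of 6 catalytic subunits (33.3%), 3 of 7 shared subunits (42.9%) and 8 of 17 other subunits (47.1%) of the 3 enzymes had peaks. The share over all coding genes was 26.3%. The intervals of the roles (4.33 to 77.7%, 9.9 to 81.6% and 23 to 72.2%) overlapped, and each held 26.3%.

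Each member's peak could be followed in the replicates. Both listed a candidate for all 25 peaks, and 20 of them (against 79.2% of all coding genes with a promoter peak) ranked within 3894, the number of IDR peaks, in both. The other 5 were Polr2C, Polr3F, Taf2, Taf6 and TfIIFalpha, whose rank in replicate 3 was beyond it, and Taf6 was beyond it in replicate 2 as well. Of the weaker candidates, 8 of 22 (36.4%) were listed in both replicates, against 47.8% of all coding genes with only a weaker candidate. Their pooled signals ran from 20.3 to 61.9 with a median of 38.0, against a median of 36.1 over all such coding genes. Of these 22, Polr1E and TfIIS ranked within 3894 in replicate 3.

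**Figure D2:**
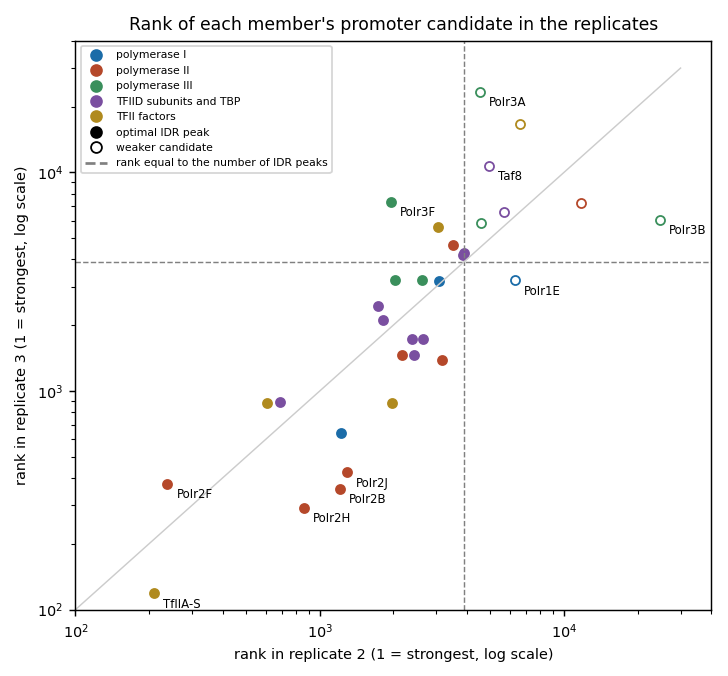
Rank of the candidate overlapping each member's promoter peak in replicate 2 (horizontal axis) and replicate 3 (vertical axis), both log scales with 1 the strongest; colours are classes, filled circles IDR peaks and open circles weaker candidates listed in both replicates. TfIIA-S lies nearest the origin at ranks 209 and 119, and Polr3F is the filled point farthest above the diagonal, at ranks 1957 and 7340.

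All 25 summits lay upstream of the member's nearest own TSS, against 86.2% of all coding genes with a promoter peak. The median distance was 118 bp (35 to 335 bp), against 100 bp. For Polr1D, Taf4, Taf7 and TfIIA-L this TSS was an inner one, and the summit lay inside the annotated gene. Of the 25 summits, 22 lay outside annotated exons. This share was not counted over all coding promoter peaks, so it describes the members alone. The summit of Polr2A lay in an exon of an antisense RNA gene. Those of Taf11 and Taf13 lay in the first exon of their neighbours und and nesd. Weaker candidates lay upstream at 14 of 22 members. Their median position was -42.5 bp (negative is upstream), against -43 bp over all coding genes with only a weaker candidate. The position of the optimal peaks was shared with other genes in most cases. Of the 25 peaks, 21 (84.0%) also lay within 500 bp of a TSS of another coding gene, against 60.7% of all coding genes with a promoter peak. The member was the gene with the nearest TSS at 14 of the 25 peaks (56.0%), against 73.0% of all coding genes with a promoter peak.

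The layout of the promoters was looked at after these values had been seen. A divergent neighbour is a coding gene on the other strand whose TSS lies at most 500 bp upstream of a TSS of the member. Of the 55 members, 32 (58.2%) had one, against 27.4% of all coding genes. With a divergent neighbour, 21 of 32 members (65.6%; 46.8 to 81.4%) had an optimal peak, against 54% of 3815 such coding genes (52.5 to 55.6%). Without one, 4 of 23 members (17.4%; 4.95 to 38.8%) had a peak, against 15.8% of 10130 (15.1 to 16.5%). In both layouts the background share lay within the interval of the members' share. Applied to the members' layouts, the background shares amount to 20.9 of 55 genes (38.1%), where 25 had a peak. The layout moved with the members' share of peaks, and its part in that share was not tested.

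**Figure D3:**
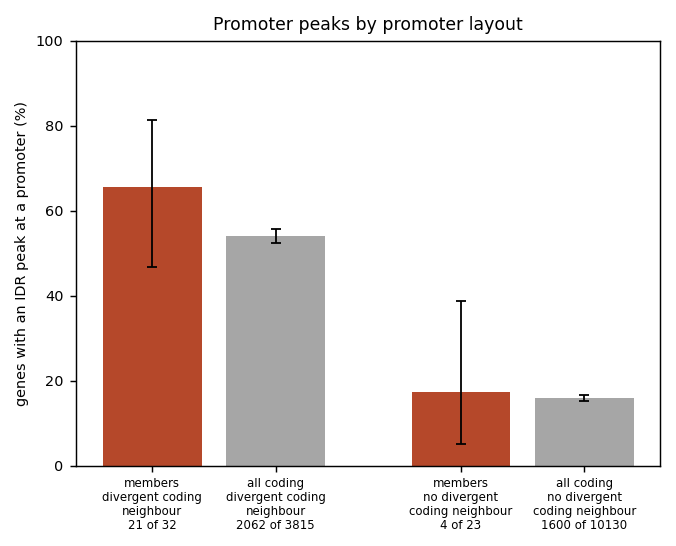
Share of genes with an IDR peak at a promoter (bars start at 0) for members and for all coding genes, split by whether the gene has a divergent coding neighbour within 500 bp; error bars are exact 95% binomial intervals, for counting error only. Members with a neighbour stand at 65.6% beside 54% of all such genes, and members without one at 17.4% beside 15.8%.

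At the 21 members with a peak and a divergent neighbour, every summit lay between a start site of each gene, against 1788 of the 2062 coding genes of this kind. These start sites were 79 to 500 bp apart at the members, with a median of 248 bp. Where a gene had several start sites, a pair with the summit between them was preferred, at all coding genes alike. With the closest pair of start sites alone, 18 of 21 members (85.7%) had the summit between them, against 72.6%, and the exceptions were Taf11, Taf13 and TfIIA-L. The summit was nearer the member's TSS at 10 and nearer the neighbour's at 11. The pairs on the Polr side were Polr1D with brat, Polr1F with Rat1, Polr2A with CG11699, Polr2B with 140up, Polr2C with GatC and PolG2, Polr2H with CG11247, Polr2I with su(Hw) and Polr2J with CG15141. Polr3D paired with mus304, Polr3E with CG10584 and Polr3F with PyK. Among the factors, Taf2 paired with CalpB, Taf5 with Pex6, Taf6 with ash1, Taf7 with EMC1, Taf11 with und and Taf13 with nesd. TfIIA-L paired with pll, TfIIB with Bug22 and TfIIFalpha with CG1024. In the pairs of Polr1D, Taf7 and TfIIA-L the member's start site was an inner one. The neighbour's start site there lay within the annotated span of the member. The neighbours include genes of the insulator protein su(Hw), the histone methyltransferase ash1, the translational repressor brat and the Toll pathway kinase pll. These are examples, and the neighbours were not counted by function.

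The summits of Polr2H, Taf11 and Taf13 lay 7, 19 and 24 bp from the nearest TSS of the neighbour and 119, 246 and 147 bp from the member's. Those of TfIIB and Polr3E lay 85 and 131 bp from the neighbour's and 335 and 334 bp from the member's. Those of Polr3D, Polr3F and Polr2B lay 189, 110 and 170 bp from the neighbour's and 51, 53 and 73 bp from the member's. Near the middle lay those of Polr2A (155 bp from CG11699 and 140 bp from Polr2A) and Taf6 (170 bp from ash1 and 163 bp from Taf6). The closest start sites with a peak, those of Taf2 and CalpB at 79 bp, held a summit 33 bp from CalpB and 46 bp from Taf2. Member pairs closer than this, which have no optimal peak by the choice of that distance, were Polr1A and Blos1 (62 bp), Polr1C and Scox (69 bp), Polr2D and Tgs1 (43 bp), Taf10 and Taf10b (45 bp) and Taf12 and Ho (53 bp). The share of all coding genes with a peak at such distances was not counted, so no rule of distance can be read from these pairs. The other members with a divergent neighbour and no peak were Polr2M, Polr3C, Polr3I, Polr3K and TfIIA-S-2.

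**Figure D4:**
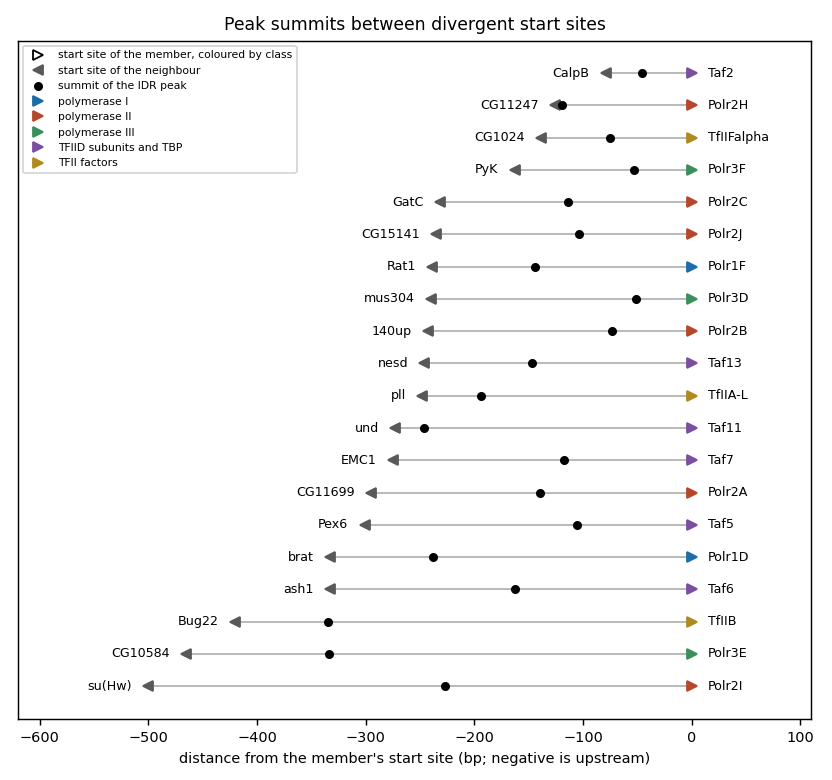
Map of 20 of the 21 members whose IDR peak lies at a divergent promoter, each aligned at the member's TSS (coloured triangle at 0) and drawn to scale in bp, with the neighbour's TSS as a grey triangle and the peak summit as a black dot. For genes with several start sites, the pair around the summit is drawn; each dot lies between its triangles, and the rows are ordered by the distance between start sites, 79 bp for Taf2 and 500 bp for Polr2I.

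The whole stretches between the start sites are shown for 4 such pairs, chosen to show the shared DNA in which the summit falls and its base composition. They run 5′ to 3′ on the strand of the member, between a TSS of the member and one of its neighbour, in dm6 coordinates with the letters of the RefSeq release 6 assembly, and capitals mark the 21 bases centred on the summit. Polr1F and Rat1 are at chr2L:6907845-6908082 (minus), Polr2B and 140up at chr3R:14125549-14125790 (plus), TfIIA-L and pll at chr3R:27253183-27253429 (plus) and Taf2 and CalpB at chr3L:9888684-9888761 (minus). The stretch of TfIIA-L and pll lies inside the annotated TfIIA-L gene, upstream of an inner start site.
Polr1F and Rat1: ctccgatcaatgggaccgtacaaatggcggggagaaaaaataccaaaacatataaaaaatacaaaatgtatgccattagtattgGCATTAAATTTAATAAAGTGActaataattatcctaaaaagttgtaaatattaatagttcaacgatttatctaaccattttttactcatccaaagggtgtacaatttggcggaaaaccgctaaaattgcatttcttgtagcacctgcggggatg
Polr2B and 140up: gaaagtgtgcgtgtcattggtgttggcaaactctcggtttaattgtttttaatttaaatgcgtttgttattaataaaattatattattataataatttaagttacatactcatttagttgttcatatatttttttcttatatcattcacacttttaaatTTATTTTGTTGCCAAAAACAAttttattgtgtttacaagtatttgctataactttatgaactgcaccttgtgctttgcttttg
TfIIA-L and pll: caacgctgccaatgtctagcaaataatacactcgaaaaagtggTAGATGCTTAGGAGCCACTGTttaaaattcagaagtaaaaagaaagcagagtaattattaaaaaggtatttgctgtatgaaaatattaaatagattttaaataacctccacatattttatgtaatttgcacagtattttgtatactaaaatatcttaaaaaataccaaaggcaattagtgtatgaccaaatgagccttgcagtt
Taf2 and CalpB: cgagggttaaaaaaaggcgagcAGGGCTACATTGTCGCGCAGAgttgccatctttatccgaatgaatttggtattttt

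G and C made up 33.2% of the bases between Polr1F and Rat1, 24.8% between Polr2B and 140up, 29.6% between TfIIA-L and pll, and 43.6% between Taf2 and CalpB. The shortest of the 4, between Taf2 and CalpB, was the richest in G and C, but no link of length to composition can be read from 4 chosen stretches. Within 50 bp of the summits, the median G and C content was 31.7% over the 25 member peaks, against 39.6% over the 2883 coding promoter IDR peaks. Split by layout, which was done after the values had been seen, it was 29.7% (quartiles 24.8 and 34.7%) at the 21 member peaks between divergent start sites, against 35.6% (28.7 and 43.6%) at the 961 such peaks of all coding genes. Of the 21, 17 lay below that median. The lowest were Taf6 at 15.8%, Polr2J at 17.8%, Polr1F at 18.8% and Polr2B at 20.8%. The 4 other member peaks had a median of 49.0% (42.6 to 50.5%), against 41.6% at the 1922 other coding promoter peaks. Weaker candidates of members had a median of 42.6%, against 44.6%. The part of base composition in the signals was not tested.

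**Figure D5:**
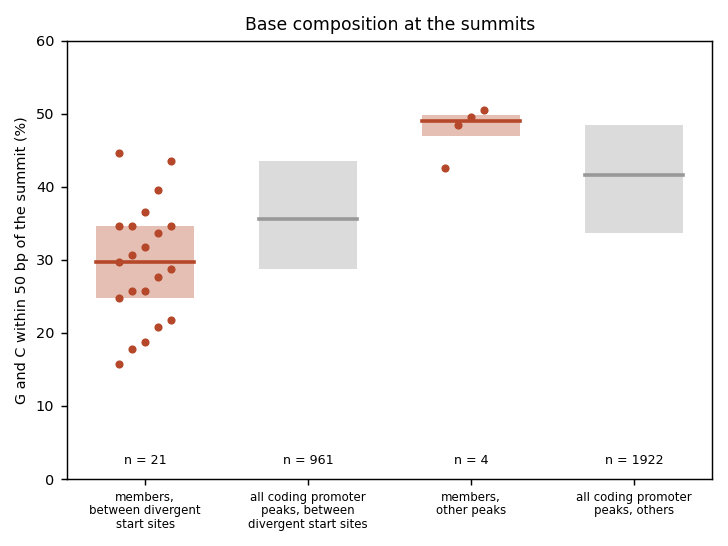
Share of G and C within 50 bp of the summit (vertical axis, %) for IDR peaks between divergent start sites and for other promoter peaks, members beside all coding genes; lines are medians, boxes quartiles, and dots the single member peaks. The member peaks between divergent start sites have a median of 29.7% beside 35.6%, and the 4 other member peaks lie between 42.6 and 50.5%.

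The sequence at the summit of Taf6, the poorest in G and C, shows this composition (chr3L:19598875-19598975, plus strand, 5′ to 3′, no capitals because no searched motif matched).
Taf6: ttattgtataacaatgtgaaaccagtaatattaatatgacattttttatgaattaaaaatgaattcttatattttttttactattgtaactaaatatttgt

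The 4 peaks without another coding start site within 500 bp were those of TfIIA-S (390), Polr2F (325), Taf4 (206) and Taf9 (112), with a median of 266. The 21 peaks between divergent start sites ran from 72.6 to 225 with a median of 108. The groups overlap, since Taf9 lies inside the range of the 21 and Taf4 below Polr2H and TfIIA-L, and only 4 peaks make up the first of them.

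By chromosome, peaks were found at 2 of 6 members on X, against 30.5% of its coding genes, at 7 of 13 on 2L, against 23.6%, and at 1 of 7 on 2R, against 26.0%. They were found at 7 of 10 on 3L, against 25.3%, and at 8 of 18 on 3R, against 26.6%. The fourth chromosome held Taf3 alone, which had a weaker candidate of 37.7, and 26.2% of its coding genes had a peak. The 1 member with a peak on 2R was Taf5. These counts are too few to be set apart from each other.

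Other genes of the transcription machinery, whose symbols lie outside the rule, were taken from 6 lists that were chosen with earlier results of these data known. Of 31 such genes, 21 had an optimal promoter peak, against 26.3% of all coding genes, 7 had a weaker candidate and 3 none, and 18 of the 31 had a divergent coding neighbour. With the neighbour 15 of 18 had a peak, against 54% of all coding genes of that layout, and without it 6 of 13, against 15.8%. Since the lists were picked by hand with results known, these counts describe the listed genes and nothing beyond them. TFIIH, which opens the promoter and phosphorylates polymerase II, had peaks at 7 of 10 genes, against the same 26.3%, led by Ssl1 at 757 (rank 29), mrn at 260 and Tfb5 at 191, followed by Xpd (123), Tfb4 (102), Cdk7 (99.2) and Tfb1 (84.2). CycH (44.0) and hay (27.5) had weaker candidates, and Mat1 had none.

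All 9 listed genes for promoter-proximal pausing and elongation had peaks, against 26.3% of all coding genes. The negative elongation factor was represented by Nelf-E at 434 (rank 123), Nelf-A at 284, TH1 at 150 and NELF-B at 136, and elongation factors by Su(Tpl) at 112, spt4 at 96.0, Spt6 at 95.2, ear at 94.2 and Spt5 at 70.3. The polymerase III initiation factors Bdp1 (714, rank 34) and Brf (525, rank 73) had stronger peaks than any member, as had Ssl1 and Nelf-E. Each of these peaks was shared with other genes: that of Bdp1 with CG6565, of Brf with sds22, of Ssl1 with Chro, and of Nelf-E with RpL14 and a snoRNA gene. The TBP relatives were Trf2, with a peak of 98.7, and Trf, with a weaker candidate of 40.9. Among TBP regulators NC2alpha had 296 and Hel89B 119, and NC2beta a weaker candidate of 19.7. Tif-IA, a polymerase I initiation factor, had a weaker candidate of 23.3. The peaks of Trf2 and Spt5 ranked at 20346 and 12274 in replicate 3, against 1817 and 3248 in replicate 2.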

How the data were processed

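ChIP-seq was done on whole adult females of 1 CG1620-eGFP line, with 2 replicates in 1 group. The deposited value of a peak is a signal value, read from the seventh column of the narrowPeak layout. It is taken here as a score against the control that is not scaled between lists. No source used here describes it, so only values of the same list are set against each other. Per the text files deposited beside the lists, each replicate's candidates came from its own alignments and 1 control file, the pooled list from both replicates, and IDR applied to these lists set the optimal peaks. Neither aligner nor caller nor threshold is given in the sources used here. The lists hold no read counts, so depth and the precision of a signal are unknown.

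Coordinates are dm6, 1-based. Annotation was Ensembl release 115 (17896 genes with a TSS, without pseudogenes and transposable elements) and sequence the RefSeq release 6 assembly: 99.9% of 16213 distinct start codons read ATG, and all 93894 peak ends lay inside their chromosomes. A gene took its strongest peak with a summit within 500 bp of any of its TSSs. A replicate's candidate was matched where it overlapped the pooled peak by at least 50% of either. Intervals are Clopper-Pearson at 95%. Assignment was tested on simulated data. Python 3.11.15, numpy 2.4.6, scipy 1.17.1 and matplotlib 3.10.9 were used. The dm3 lists were not used.

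Every member is accounted for: members with an IDR peak with all values, apart from 1 member that enters the counts and is not reported here by itself, the 10 strongest weaker candidates with values, the rest with their pooled signal or by name. The members, gene lists and motifs were chosen with earlier results of these data known, so no list was tested. The roles grouping, the divergent layout, the base composition by layout and the values of weaker candidates outside the 10 strongest were added after values were seen. Replicate numbers are those of the labels, and the labels do not say that the biosamples came from separate cultures or collections.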

Additional observations from a re-analysis of the deposited data

How the results depend on the processing

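The count of 25 members with an IDR promoter peak was 23 with summits within 250 bp (41.8%, against 22.4% of all coding genes). Polr3E and TfIIB were the members lost. The count was 26 within 1000 bp (47.3%, against 28.7%) and 25 by overlap of the peak interval (45.5%, against 27.5%). Giving each peak to its nearest TSS alone left 14 members (25.5%, against 19.2% of all coding genes), with 0 Polr1, 2 Polr3, 5 TFIID and TBP and 1 TfII genes. Among the members lost were Polr1D, Polr1F, Polr2H, Polr3E, Taf2, Taf11, Taf13, TfIIA-L, TfIIB and TfIIFalpha. The 1947 strongest IDR peaks left 13 members (23.6%, against 15.7%, or 2188 coding genes), with 1 Polr1, 1 Polr3 and 3 TFIID and TBP genes. Leaving out 1 replicate and taking the 3894 strongest candidates of the other gave 22 to 24 members. These were 22 without replicate 2 (40.0%, against 25.4% of all coding genes) and 24 without replicate 3 (43.6%, against 25.9%). Without replicate 2, Polr2C, Polr3F, Taf2, Taf6 and TfIIFalpha were lost and Polr1E and TfIIS gained, and without replicate 3, Taf6 was lost. Of the 22 members with only a weaker candidate, 14 were left among the 10000 strongest pooled candidates (25.5% of members, against 15.8% of all coding genes). With a candidate in both replicates 8 were left (14.5%, against 15.8%), where the members had the lower share. With divergent neighbours counted up to 1000 bp, chosen after seeing the data, 22 of 36 members with one had a peak (61.1%, against 48.4%) and 3 of 19 without (15.8%, against 13.7%). No paired analysis was possible because the study has 1 group and no test was made. The lists end at a rank, so a gene without a candidate may still carry signal below the weakest entry.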
